A study of Mus musculus with 22 samples.

Results

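The 10 genes described here encode Fc receptors, the adaptors that carry their signal and the first enzymes downstream. They are *Fcer1g*, *Tyrobp*, *Fcgr1*, *Fcgr3*, *Fcgr2b*, *Trem2*, *Syk* (listed as *Sykb* in the symbol table used), *Btk*, *Pik3cd* and *Ptpn6*. They were found by symbol among the 55401 gene identifiers of the count table, and all 10 were matched. The members were chosen by function with the measured values of these same libraries known, across all 6 groups, so their levels and differences are a description and carry no *P* value. Fc receptors bind the constant part of antibodies. Most activating Fc receptors have no signalling motif of their own and pair with Fc receptor gamma chain (*Fcer1g*), whose tail holds an immunoreceptor tyrosine-based activation motif (ITAM). TREM2, a receptor for lipids and lipoproteins on macrophages and microglia, pairs in the same way with DAP12 (*Tyrobp*). Once both tyrosines of an ITAM are phosphorylated by Src-family kinases, SYK binds to them and signals on through BTK and phosphoinositide 3-kinases, while the phosphatase SHP-1 (*Ptpn6*) and the inhibitory receptor FcγRIIB (*Fcgr2b*) restrain the signal. These genes are best known from macrophages and other leukocytes.

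RNA-seq was done on 22 libraries of mouse embryonic fibroblasts (MEFs), primary cells that stop dividing and become senescent on serial passage. The *S6K1* set held 4 early WT libraries at passage 3 (SG02, SG03, SG04 and SG05), 4 late WT libraries at passage 8 (SG19, SG21, SG22 and SG23) and 3 late *S6K1* KO libraries at passage 8 (SG24, SG25 and SG27). The *S6K1/S6K2* set held 4 early WT libraries at passage 3 (SG46, SG47, SG48 and SG50), 4 late WT libraries at passage 8 (SG57, SG58, SG59 and SG60) and 3 late *S6K1/S6K2* double KO (DKO) libraries at passage 8 (SG61, SG62 and SG64). Values below are given in this order of libraries. Mice were of the C57BL/6 strain, heads and viscera had been removed from the embryos, and no treatment other than passage is labelled. WT and *S6K1* KO embryos were littermates, although which libraries share a mother is not given in the sources used here. The WT MEFs of the DKO comparison came from other, WT mothers, so that genotype and litter cannot be told apart there. DKO embryos came from crosses of mice without *S6K2*. At passage 3 only WT libraries were used here.

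The ITAM is what *Fcer1g* and *Tyrobp* share, and its coding sequence is shown for that reason. It was found in the GENCODE vM1 coding transcripts as a tyrosine codon, any 2 codons and a leucine or isoleucine codon, then 6 to 8 codons and the same pattern again. Capitals mark the tyrosine and leucine codons in codons 65 to 79 of 86 (*Fcer1g*) and codons 92 to 106 of 114 (*Tyrobp*).
*Fcer1g*: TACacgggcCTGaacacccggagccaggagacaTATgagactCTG
*Tyrobp*: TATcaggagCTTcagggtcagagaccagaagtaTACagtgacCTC
Both stretches are 45 bases long. Among the 10 members these were the only genes with the pattern, which 646 of 22737 coding genes (2.84%) held, so that by itself it does not identify an ITAM. The other 8 members act around it as receptors, kinases, lipid kinase or phosphatase.

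The promoters of the members are shown because the genes were high and low in the same libraries. RefSeq promoters (GRCm38.p6, 250 bases before to 50 bases after each start) had 13 entries for 9 members, and *Tyrobp* had none. They were searched on both strands for GAGGAA, the purine-rich box for which the myeloid factor PU.1 is named. A match was found in *Fcgr1*, *Fcgr3*, *Trem2*, *Btk* and *Syk*, 5 of 9 members, against 31.3% of all 27025 genes with an entry. In the first 4 of these, but not in *Syk*, it was part of a longer run, GAGGAAGGA, on the strand opposite to the gene. That run was picked after the sequences had been read, and was found in 445 genes (1.65%). The 80-base windows below are on the strand of the gene, with the match in capitals.
*Fcgr1*, chr3:96293984-96294063, minus strand: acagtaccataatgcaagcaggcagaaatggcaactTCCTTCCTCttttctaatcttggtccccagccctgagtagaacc
*Fcgr3*, chr1:171059404-171059483, minus strand: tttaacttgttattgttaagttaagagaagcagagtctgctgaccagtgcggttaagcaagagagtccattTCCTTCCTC
*Trem2*, chr17:48346321-48346400, plus strand: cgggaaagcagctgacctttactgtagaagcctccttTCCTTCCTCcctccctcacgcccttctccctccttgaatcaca
*Syk*, chr13:52596802-52596881, plus strand: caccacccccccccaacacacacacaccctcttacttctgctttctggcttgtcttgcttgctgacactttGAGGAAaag
The run began 58 bases before the start in *Fcgr1*, 43 in *Trem2* and 9 in *Fcgr3*, and at base 7 after the start in *Btk*. These matches are letters in a window and not sites. No match in *Fcer1g*, *Fcgr2b*, *Pik3cd* and *Ptpn6* says only that these letters were not in their windows.

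Of the members, 3 lie close together on chromosome 1 (RefSeq, GRCm38.p6), with *Fcgr2b* at chr1:170960558-170976071, *Fcgr3* at chr1:171051169-171065915 and *Fcer1g* at chr1:171229572-171234349. Between them are 75097 and 163656 bases. *Fcgr2b* and *Fcgr3* are close paralogs, and 166 of the 1650 different 50-base words of *Fcgr2b* transcripts (10.1%) also occurred in *Fcgr3* transcripts. Reads were 50 bases long, and how such reads were assigned is not given in the sources used here, so the counts of this pair are uncertain to that extent. The others lie at chr7:30413782-30417582 (*Tyrobp*), chr3:96282909-96293969 (*Fcgr1*), chr17:48346401-48352276 (*Trem2*), chr13:52582610-52648792 (*Syk*), chrX:134542334-134583628 (*Btk*), chr4:149649168-149702566 (*Pik3cd*) and chr6:124720707-124738709 (*Ptpn6*).

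Levels are in CPM, read counts scaled by edgeR to a common library size after TMM normalization. The total count per library was 10742454 to 17314832 (median 14651363.5), at which 3 counts are 0.173 to 0.279 CPM, counting error only. Every member had at least 8 counts in every library. Fibroblast markers were present in all 22 libraries, with none of 8 genes at 0 throughout a group. Their summed level had a median of 23040 CPM in early WT, 13790 CPM in late WT and 10670 CPM in KO MEFs of the *S6K1* set, and of 24540, 11370 and 13960 CPM in early WT, late WT and DKO libraries of the other. Markers of macrophages were present too. Their summed level over 18 genes was 552 to 1136 CPM in early WT, 5658 to 11700 CPM in late WT and 3709 to 5062 CPM in KO MEFs of the *S6K1* set, and 637 to 2133, 8158 to 13800 and 1007 to 3739 CPM in the same order, with DKO last, in the *S6K1/S6K2* set. *Cd163* was at 0 in every library. No marker is a member. The summed markers of other blood cells reached at most 0.453 CPM for NK cells, 0.601 for neutrophils, 1.49 for mast cells, 2.58 for B cells, 2.97 for T cells, 4.05 for dendritic cells, 5.33 for osteoclasts and 19.7 for megakaryocytes in any library. In bulk libraries, fewer cells of a type and less RNA per cell cannot be told apart. Among DKO libraries SG61 stood apart, with 3739 CPM of macrophage markers against 1166 and 1007 CPM, and it was the highest DKO library for all 10 members. Y-linked genes were expressed in 3 of 3 KO but 1 of 4 late WT libraries of the *S6K1* set, and in 1 of 3 DKO but 3 of 4 late WT libraries of the *S6K1/S6K2* set.

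The 2 adaptors had the highest levels per length of all members. *Fcer1g* was at 21.4, 19.5, 25.8 and 9.55 CPM in early WT, 216, 102, 154 and 113 CPM in late WT and 72.2, 110.1 and 88.1 CPM in KO MEFs of the *S6K1* set. All late WT libraries were above all early WT libraries, while KO libraries overlapped the lower late WT libraries. Its *S6K1/S6K2* values were 17.9, 12.3, 43.5 and 40.9 CPM in early WT, 225, 262, 216 and 111 CPM in late WT and 58.9, 24.6 and 25.1 CPM in DKO MEFs. The DKO libraries were all below late WT. SG61, at 58.9 CPM, was above the early range, and SG62 and SG64 were within it. *Tyrobp* was at 16.2, 14.5, 20.6 and 8.69 CPM in early WT, 258, 129, 191 and 124 CPM in late WT and 64.1, 97.4 and 107 CPM in KO MEFs. Here every KO library was below every late WT library. The *S6K1/S6K2* set had it at 11.6, 8.06, 26.8 and 35.9 CPM in early WT, 166, 226, 204 and 115 CPM in late WT and 66.3, 28.6 and 15.2 CPM in DKO MEFs. Without SG61, the DKO libraries were all inside the early range.

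Among the Fc receptors, *Fcgr1* encodes the high-affinity receptor for IgG, and *Fcgr3* an activating receptor of low affinity that pairs with the *Fcer1g* product. *Fcgr1* was at 2.85, 4.16, 5.74 and 3.13 CPM in early WT, 25.2, 4.53, 9.95 and 12.3 CPM in late WT and 5.15, 9.26 and 7.20 CPM in KO MEFs. It is the member whose early and late WT libraries overlapped in the *S6K1* set, through SG21. Across the *S6K1/S6K2* libraries it was at 4.94, 1.67, 8.17 and 7.48 CPM in early WT, 14.3, 17.6, 16.7 and 11.3 CPM in late WT and 3.17, 1.49 and 0.758 CPM in DKO MEFs. Its DKO mean, 1.81 ± 1.24 CPM (SD, n = 3), was below the early WT mean of 5.56 ± 2.94 CPM (SD, n = 4), with overlap.

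*Fcgr3* was at 11.5, 6.87, 15.0 and 5.04 CPM in early WT, 86.8, 40.3, 57.0 and 51.6 CPM in late WT and 45.9, 48.4 and 43.8 CPM in KO MEFs. The KO libraries lay inside the late WT range, and no other member had KO and late WT means as close. Its *S6K1/S6K2* values were 9.88, 3.91, 17.1 and 24.8 CPM in early WT, 86.2, 96.9, 90.2 and 59.8 CPM in late WT and 28.9, 12.4 and 8.65 CPM in DKO MEFs, all DKO libraries lying under all late WT libraries.

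*Fcgr2b*, the inhibitory receptor, was at 5.59, 3.58, 4.30 and 3.04 CPM in early WT, 52.0, 23.4, 47.9 and 41.0 CPM in late WT and 23.1, 19.7 and 21.0 CPM in KO MEFs. The highest KO library and the lowest late WT library, SG21, were nearly level, and the groups did not overlap. The *S6K1/S6K2* set had it at 3.87, 6.45, 14.2 and 11.5 CPM in early WT, 79.6, 120.5, 105 and 57.5 CPM in late WT and 16.5, 5.86 and 3.10 CPM in DKO MEFs. The ratio of its DKO to its late WT mean, 0.0938, was the lowest of the 10 members, and it was 0.0494 without SG61.

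*Trem2* was at 11.8, 12.4, 16.4 and 10.51 CPM in early WT, 283, 115, 192 and 124 CPM in late WT and 62.0, 96.5 and 92.9 CPM in KO MEFs. No groups overlapped, and the ratio of late to early WT means, 13.95, was the highest of the members in this set. Across the *S6K1/S6K2* libraries it was at 13.7, 7.93, 29.6 and 37.0 CPM in early WT, 171, 239, 228 and 147 CPM in late WT and 71.8, 27.02 and 20.15 CPM in DKO MEFs, where DKO and early WT libraries overlapped.

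The kinases were at lower levels than the adaptors and *Trem2*, though not than every Fc receptor. *Syk*, the tyrosine kinase that docks on phosphorylated ITAMs, was at 7.80, 3.797, 5.62 and 4.08 CPM in early WT, 26.6, 14.8, 30.3 and 21.0 CPM in late WT and 14.9, 13.9 and 14.8 CPM in KO MEFs. Its *S6K1/S6K2* values were 7.41, 7.19, 7.71 and 10.1 CPM in early WT, 19.1, 21.8, 17.7 and 19.5 CPM in late WT and 6.85, 5.26 and 5.62 CPM in DKO MEFs. *Syk* and *Pik3cd* differed from the other 8 members in that every DKO library was below every early WT library. *Pik3cd*, the leukocyte catalytic subunit of phosphoinositide 3-kinase, was at 4.37, 2.92, 4.13 and 5.47 CPM in early WT, 17.3, 8.13, 10.01 and 9.72 CPM in late WT and 6.52, 6.32 and 6.23 CPM in KO MEFs. The *S6K1/S6K2* set had it at 3.82, 4.401, 5.03 and 5.01 CPM in early WT, 10.97, 13.97, 11.4 and 11.5 CPM in late WT and 3.34, 2.48 and 3.29 CPM in DKO MEFs. Its ratio of late to early WT means in the *S6K1* set, 2.67, was the lowest of the members.

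*Btk*, the X-linked Tec-family kinase, had the lowest count of any member in a single library, 8 reads. It was at 0.695 to 2.81 CPM in early WT, 7.58 to 17.7 CPM in late WT and 3.71 to 7.04 CPM in KO MEFs of the *S6K1* set. Across the *S6K1/S6K2* libraries it was at 0.93 to 4.07, 8.16 to 18.7 and 1.99 to 3.94 CPM in early WT, late WT and DKO MEFs. DKO libraries lay within the early range. *Ptpn6*, whose product SHP-1 removes phosphate from ITAM-linked kinases, was at 3.30 to 6.997 CPM in early WT, 24.6 to 48.7 CPM in late WT and 18.02 to 29.47 CPM in KO MEFs. Its *S6K1/S6K2* values were 3.53 to 10.02, 27.3 to 42.7 and 4.11 to 11.5 CPM in the same order. The phosphatase and the inhibitory receptor thus had the same order of groups in the *S6K1* set as the activating genes.

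**Figure D1:**
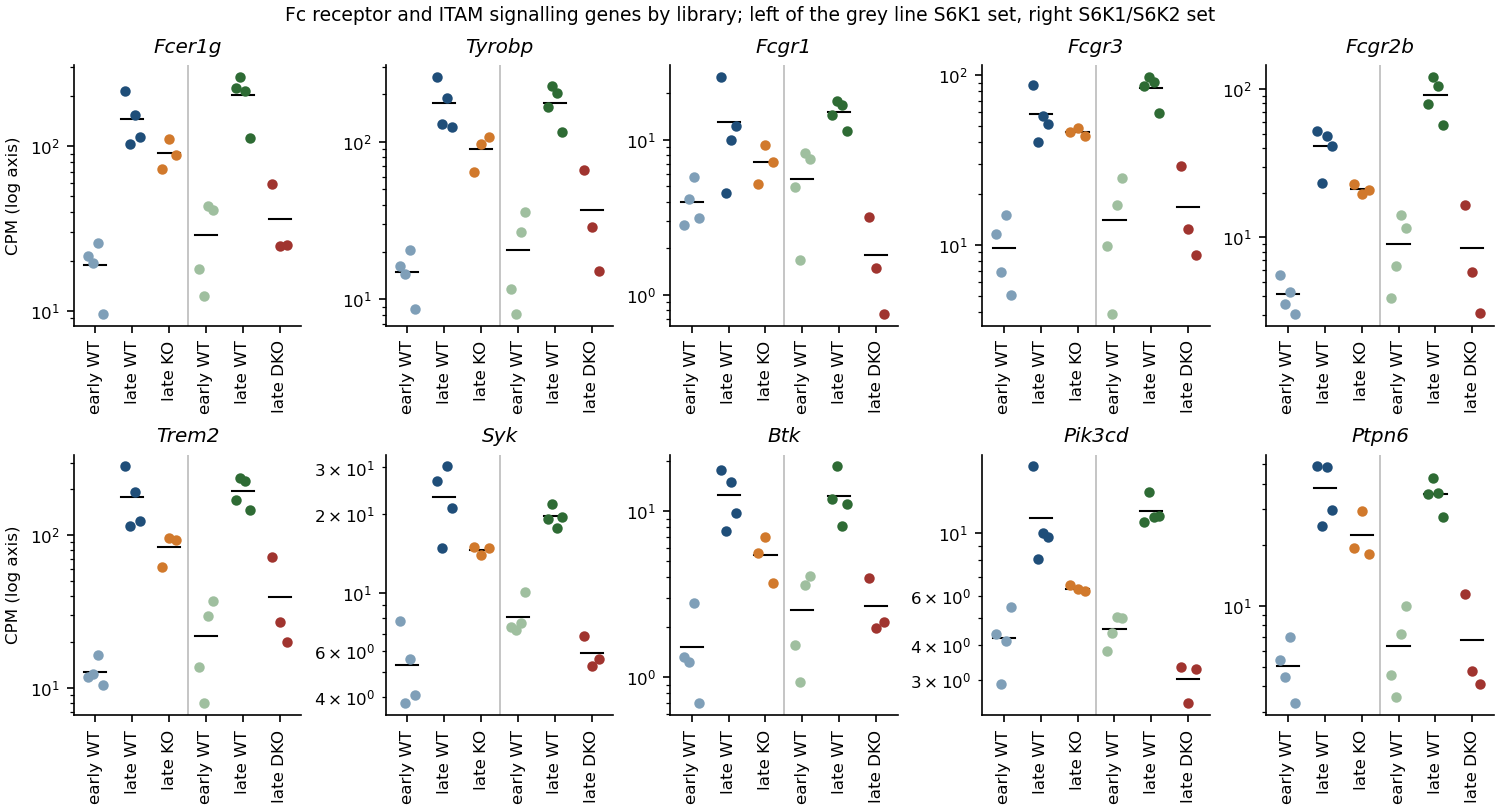
CPM (log axis) of each member in each library (points) with the group mean (black line), for early WT, late WT and KO MEFs of the S6K1 set (left of the grey line) and early WT, late WT and DKO MEFs of the S6K1/S6K2 set (right). Late WT is the highest group for all 10 members in both sets, and DKO libraries of the second set other than SG61 sit within or below the early WT range.

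Per kilobase of exon (GENCODE vM1, all annotated exons of a gene merged, which lowers the value of genes with many exons), the level in late WT MEFs of the *S6K1* set was 311 CPM per kb for *Tyrobp*, 183 for *Fcer1g*, 36.0 for *Trem2*, 33.9 for *Fcgr3*, 13.5 for *Ptpn6*, 10.7 for *Fcgr2b*, 4.97 for *Fcgr1*, 3.97 for *Btk*, 2.48 for *Syk* and 1.80 for *Pik3cd*. On this scale, the adaptors were far above the receptors and the receptors above the kinases. That order depends on the annotated lengths, which were 4946 bases for *Trem2* against 564 for *Tyrobp* and 800 for *Fcer1g*. In CPM alone *Trem2* was not below the adaptors, with a mean of 178.3 against 175.4 for *Tyrobp* and 146.3 for *Fcer1g*.

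With passage of WT MEFs in the *S6K1* set, the fitted log2 fold change of the members was 1.42 to 3.80, with a median of 2.91, against a median of −0.04 over all 14132 genes tested. *Trem2* (3.80, standard error 0.31), *Tyrobp* (3.54, standard error 0.32) and *Fcgr2b* (3.30, standard error 0.27) were at the upper end. At the lower end were *Pik3cd* (1.42, standard error 0.26) and *Fcgr1* (1.70, standard error 0.44). All 10 members were past a false discovery rate of 5% in edgeR's quasi-likelihood test, where 6.96% of all genes were higher. In 9 of the 10 every late library was above every early library, against 9.19% of all genes. Since the members were chosen with these values known, nothing is read from those counts. All 17 tested macrophage markers were higher as well (median 3.09 on the log2 scale) and 2 of 8 fibroblast markers were lower, and their part in the members' difference was not tested.

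Late *S6K1* KO MEFs, set beside the same late WT libraries, had lower values for all 10 members, and none was past the false discovery rate (2 were with DESeq2, where 1.17% of all genes were lower). The log2 fold change was −0.36 (standard error 0.33) for *Fcgr3*, −0.67 (standard error 0.28) for *Syk* and −0.70 (standard error 0.32) for *Fcer1g*. The value of *Fcgr3* was −0.11 without SG19 and −0.82 with Y-linked expression as a covariate, and that of *Syk* was −1.14 with the covariate. The log2 fold change was −0.95 (standard error 0.26) for *Fcgr2b*, −1.09 (standard error 0.30) for *Trem2* and −1.19 (standard error 0.42) for *Btk*. The median over the members was −0.84, against −0.01 over all genes. In edgeR 0.0354% of all genes were lower and 0.00708% higher, so this comparison called almost nothing anywhere. In 5 members, *Tyrobp*, *Fcgr2b*, *Trem2*, *Btk* and *Pik3cd*, every KO library was below every late WT library, as were 6.28% of all genes. The late KO level nevertheless remained above the early WT level. The ratio of the 2 means was 1.505 (*Pik3cd*) to 6.56 (*Trem2*), with a median of 4.57. In 9 members, all but *Fcgr1*, the KO libraries did not overlap the early WT libraries, which was so in this direction for 13.9% of all genes. Because the members were chosen with these values known, nothing is read from these counts of members. Macrophage markers had a median log2 fold change of −0.87 in KO MEFs, 17 of 17 below 0, and their part was not tested.

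In the *S6K1/S6K2* set, late WT MEFs were again above early WT MEFs for every member. The log2 fold change was 1.27 (*Syk*, standard error 0.16) to 3.33 (*Fcgr2b*, standard error 0.52), with a median of 2.53 against 0.01 over all 14365 genes tested. *Tyrobp* stood at 3.11 (standard error 0.54) and *Fcer1g* at 2.83 (standard error 0.47). Of the members 9 were past the false discovery rate, *Fcgr1* being the exception, where 8.28% of all genes were higher. In all 10 no late library overlapped an early library, against 11.6% of all genes. Nothing is read from these counts, for the reason given for the *S6K1* set. The 17 tested macrophage markers were all higher, with a median of 2.51, 2 of 8 fibroblast markers were lower, and the 1 tested B cell marker was higher, and their part was not tested.

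DKO MEFs had lower values than late WT MEFs for every member. The log2 fold change was −3.43 (standard error 0.60) for *Fcgr2b*, −3.07 (standard error 0.56) for *Fcgr1* and −2.49 (standard error 0.51) for *Fcer1g*. *Syk*, at −1.72 (standard error 0.18), and *Pik3cd*, at −1.97 (standard error 0.21), were the smallest in size and had the smallest errors. The median was −2.32, against −0.01 over all genes. Past the false discovery rate were 9 members, *Tyrobp* being the exception, where 3.95% of all genes were lower. In all 10 every DKO library was below every late WT library, as in 10.6% of all genes. Without SG62 or without SG64 only 2 members were past the false discovery rate, where 83 of 14695 and 135 of 14710 genes were lower. With all libraries 568 of 14365 genes were lower. Without SG61 all 10 members passed, where 536 of 14739 genes were lower, and the members' median was −3.01. With the Y-linked covariate 6 members passed, where 454 of 14365 genes were lower. Here too the members were chosen with these values known, so nothing is read from these counts of members. Relative to early WT MEFs, the DKO mean was 0.325 (*Fcgr1*) to 1.80 (*Trem2*) times as high, with a median of 1.07, and it was the lower of the 2 for 4 members (*Fcgr1*, *Pik3cd*, *Syk* and *Fcgr2b*). These ratios depended on SG61, without which they were 0.202 (*Fcgr1*) to 1.07 (*Trem2* and *Tyrobp*), with a median of 0.728, and the DKO mean was the lower for 8 members. DKO libraries did not overlap early WT libraries in *Syk* and *Pik3cd*, which were lower, as were 15.7% of all genes. Macrophage markers had a median of −2.35 on the log2 scale, and 15 of 17 passed the test as lower. Their part in the members' difference was not tested.

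**Figure D2:**
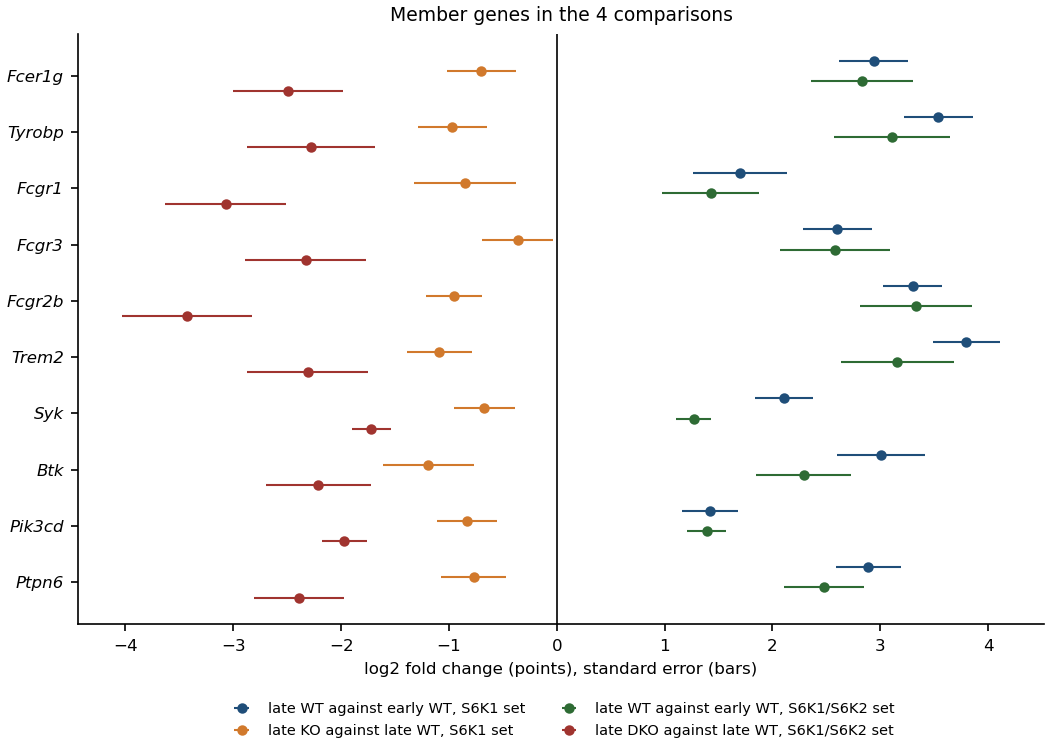
Fitted log2 fold change (points) with its standard error (bars) of each member in the 4 comparisons. Both passage comparisons lie between 1.27 and 3.80, the S6K1 KO comparison between −0.36 and −1.19, and the DKO comparison between −1.72 and −3.43. Comparisons of one set share its late WT libraries.

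The same pathway holds other genes that are not members. A list of 104 was made by role, of which 102 were matched, and these were tested with all other genes. Like the members, the list was made with earlier results of these data known. Its counts and adjusted *P* values therefore describe these genes and are not support from genes chosen blind. The genotype and passage comparisons of a set share their late WT libraries, so their results are given side by side and not as separate support. With passage of WT MEFs in the *S6K1* set 47 of 78 tested genes rose and 1 fell (edgeR's quasi-likelihood test, adjusted *P* over all genes), where 6.96% of all genes were higher and 5.97% lower. Of the ITAM-coupled and related receptors 12 of 14 rose, of the inhibitory receptors and phosphatases 12 of 20, of the SYK and Tec relatives and scaffold proteins 15 of 24, of the phosphoinositide 3-kinase genes 4 of 10 and of the Src family and its regulators 3 of 9. The 1 gene that fell was *Yes1*, a Src-family kinase of many cell types, named here after its value was seen (−0.80 on the log2 scale with a standard error of 0.21; adjusted *P* = 0.0245, edgeR). Of the adaptors only *Hcst* had enough reads, and the genes of the T cell and B cell receptor complexes, such as *Cd3e* and *Cd79a*, did not pass the filter on low counts. *Hcst* averaged 0.180 CPM in early and 1.86 CPM in late WT libraries, and it passed that filter through the late libraries. Nothing is read from its call, which is among the 47.

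The genes with the largest rise in this set were all receptors. *Clec4d*, a C-type lectin that signals through the *Fcer1g* product, averaged 105 ± 44.4 CPM in late WT libraries against 8.99 ± 0.342 CPM in early ones (n = 4 each, SD; adjusted *P* = 1.46e-05, edgeR). *Clec12a*, an inhibitory lectin, was at 70.7 ± 29.1 against 3.77 ± 1.01 CPM (n = 4 each, SD; adjusted *P* = 1.33e-05, edgeR). *Cd300a*, an inhibitory receptor that recruits SHP-1, was at 21.99 ± 4.44 against 1.64 ± 0.515 CPM (SD, n = 4 each), and *Pirb* at 31.9 ± 11.5 against 2.35 ± 0.704 CPM. *Clec7a*, the beta-glucan receptor dectin-1, had at most 4 counts in early libraries and was at 2.15 ± 1.19 CPM (SD, n = 4) in late libraries (adjusted *P* = 0.00286, edgeR). *Cd300lb*, *Cd72* and *Lair1* rose by log2 fold changes of 3.86, 3.56 and 3.43. These 8 genes passed with any 1 library of the set left out, although nothing is read from this for *Clec7a*.

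In late KO compared with late WT MEFs of that set, none of the 78 genes passed edgeR's test, with a smallest adjusted *P* of 0.0769. At an unadjusted *P* under 0.05 there were 23, all lower in KO MEFs, where 10.6% of all genes had such a *P* in either direction. With DESeq2 11 of the 78 genes passed, all lower, where 1.17% of all genes did. The median log2 fold change of the 78 genes was −0.56. Among roles, it was −0.71 for the inhibitory genes, −0.47 for the receptors, −0.47 for SYK and Tec relatives, −0.28 for the Src family and −0.19 for phosphoinositide 3-kinase genes.

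In the *S6K1/S6K2* set, 42 of 80 tested genes rose with passage and 2 fell (edgeR, adjusted over all genes), where 8.28% of all genes were higher and 4.89% lower. The 2 that fell were *Dok1* (−0.81 on the log2 scale with a standard error of 0.11; adjusted *P* = 0.00124, edgeR), a docking protein, and *Cblb* (−0.52 with a standard error of 0.15; adjusted *P* = 0.0401, edgeR), a ubiquitin ligase, both named after their values were seen. By role, 7 of 13 receptors, 11 of 21 inhibitory genes, 16 of 25 SYK and Tec relatives and scaffold proteins, 4 of 10 phosphoinositide 3-kinase genes and 3 of 9 Src-family genes rose. *Blnk*, an adaptor between SYK and BTK, averaged 33.2 ± 7.61 CPM in late WT libraries against 3.22 ± 2.11 CPM in early ones (n = 4 each, SD; adjusted *P* = 0.00442, edgeR). *Clec12a*, at 48.8 ± 9.98 against 4.45 ± 2.65 CPM, and *Lair1*, a collagen receptor with inhibitory motifs, at 21.9 ± 7.12 against 1.99 ± 0.791 CPM, both had an adjusted *P* of 0.000911 (edgeR; SD, n = 4 each). *Clec4d*, *Clec7a*, *Cd72* and *Cd300a* rose by log2 fold changes of 3.09, 3.35, 3.18 and 3.05. Of these, *Clec7a* had only 2 to 13 counts in early libraries, and again nothing is read from its call. *Hcst*, which encodes the adaptor DAP10, had 0 to 7 counts in early libraries and was at 1.49 ± 0.879 CPM (SD, n = 4) in late libraries. It passed the filter on low counts through the late WT libraries, where it was high, and its call, which is among the 42, was lost in 6 of 11 fits with 1 library left out, so nothing is read from it.

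In late DKO compared with late WT MEFs 32 of the 80 genes fell and none rose (edgeR, adjusted over all genes), where 3.95% of all genes were lower and 0.821% higher. This count changed with the libraries used, as did the count over all genes, which was 568 of 14365 with all libraries. Without SG62 or without SG64 only 5 pathway genes passed, where 83 of 14695 and 135 of 14710 genes were lower. Without SG61 40 passed, where 536 of 14739 genes were lower. Without SG58, a late WT library, 19 passed, where 284 of 14264 genes were lower. The 32 genes were 4 of 13 receptors, 11 of 21 inhibitory genes, 11 of 25 SYK and Tec relatives and scaffold proteins, 4 of 10 phosphoinositide 3-kinase genes and 2 of 9 Src-family genes and regulators. *Inpp5d*, whose product SHIP-1 is recruited by FcγRIIB, was at 5.25 ± 2.11 CPM (n = 3, SD) in DKO MEFs against 29.3 ± 4.62 CPM (n = 4) in late WT libraries, −2.48 on the log2 scale (standard error 0.37; adjusted *P* = 0.00519, edgeR). *Was*, the Wiskott-Aldrich syndrome actin regulator, was at 1.37 ± 0.455 CPM (n = 3, SD) against 7.39 ± 1.67 CPM (SD, n = 4; adjusted *P* = 0.00616, edgeR). These 2 genes passed with any 1 library of the set left out. *Itgam*, the integrin alpha chain of complement receptor 3, was at 4.03 ± 2.83 CPM (n = 3, SD) against 29.9 ± 8.13 CPM (SD, n = 4; adjusted *P* = 0.00975, edgeR). *Lcp2*, the scaffold SLP-76, was at 1.84 ± 1.04 CPM (n = 3, SD) against 13.8 ± 4.10 CPM (SD, n = 4; adjusted *P* = 0.00746, edgeR). *Card9*, which links SYK to NF-κB, had a log2 fold change of −2.61 (adjusted *P* = 0.0117, edgeR). *Clec4a2*, an inhibitory lectin, had 1 to 5 counts in DKO libraries and was at 2.84 ± 0.716 CPM (SD, n = 4) in late WT libraries (adjusted *P* = 0.00891, edgeR). With so few counts in DKO libraries nothing is read from its call, which is among the 32. The calls of *Itgam*, *Lcp2*, *Card9* and *Clec4a2* were lost without SG62 and without SG64. *Vav1* (adjusted *P* = 0.042, edgeR) and *Dock2* (adjusted *P* = 0.0214, edgeR) also fell, and lost their calls in 7 and 3 of 11 such fits.

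**Figure D3:**
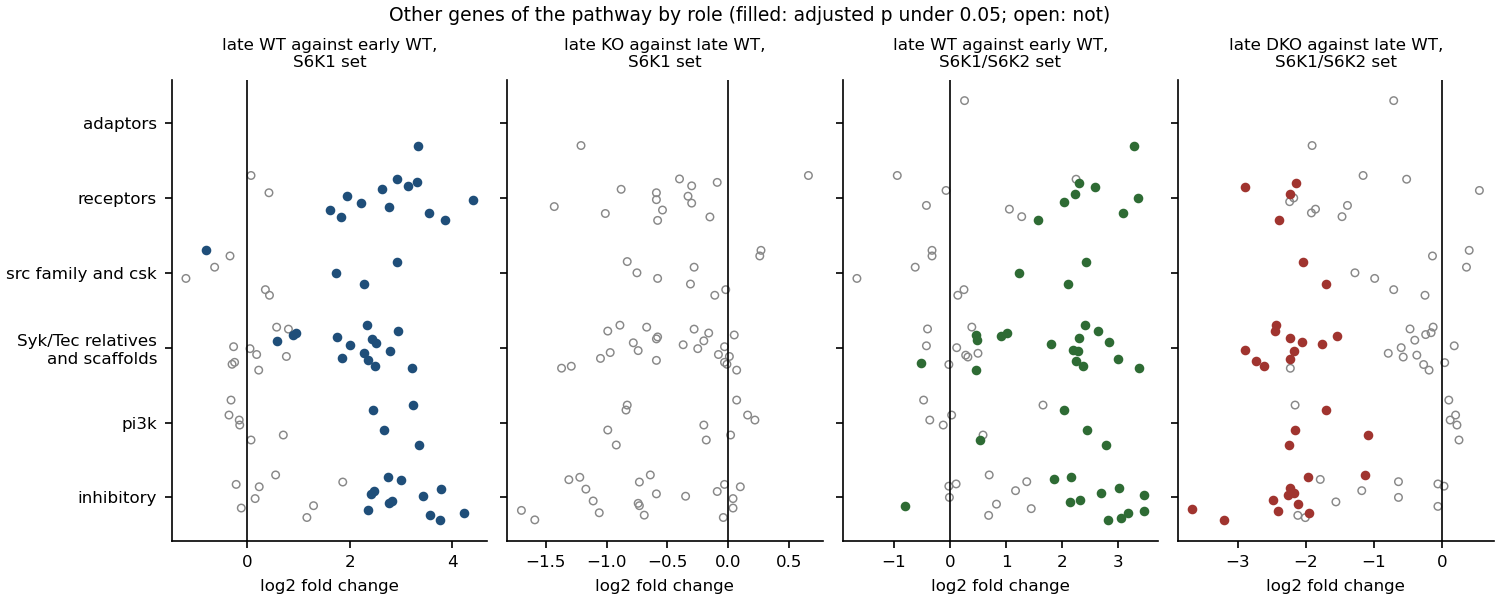
Log2 fold change of the tested non-member genes of the pathway, grouped by role, in the 4 comparisons (each point is 1 gene, filled where the adjusted P was under 0.05 in edgeR). With passage 47 and 42 genes rose in the S6K1 and S6K1/S6K2 sets. In the S6K1 KO comparison no point is filled, and in the DKO comparison 32 are, all below 0.

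Whether the effects differed between the MEF sets was tested for the 81 non-member genes as an interaction over all 22 libraries. None passed for passage, where 8 had an unadjusted *P* under 0.05, against 9.55% of all genes, and 2 passed with DESeq2 as lower, against 0.571%. None passed for genotype (DKO against KO effect) either, where 27 had an unadjusted *P* under 0.05, against 10.9% of all genes, 26 of them with a lower value for DKO, and 0 passed with DESeq2. The median log2 difference of the 81 genes was −0.84. This test called 1 of 14886 genes (0.00672%, lower), so that it passed almost nothing anywhere, and it leaves unanswered whether the KO and DKO effects on these genes differed. The members' own fold changes, −0.84 and −2.32 in the median, are values side by side.

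The summed level of the members, to which *Fcer1g*, *Tyrobp* and *Trem2* give the most, was high and low in the same libraries as the macrophage markers. It was 53.5 to 107 CPM in early WT, 470 to 1031 CPM in late WT and 319 to 438 CPM in KO MEFs of the *S6K1* set. Over the *S6K1/S6K2* libraries the sum was 56.4 to 187 CPM in early WT, 571 to 1059 CPM in late WT and 88.1 to 271 CPM in DKO MEFs. SG19 was the highest late WT library of the *S6K1* set for 9 members and SG21 the lowest for 9, and SG58 was the highest of the other set for all 10. The same libraries held the highest and, for SG21, the lowest sums of macrophage markers in their groups (11700, 5658 and 13800 CPM).

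**Figure D4:**
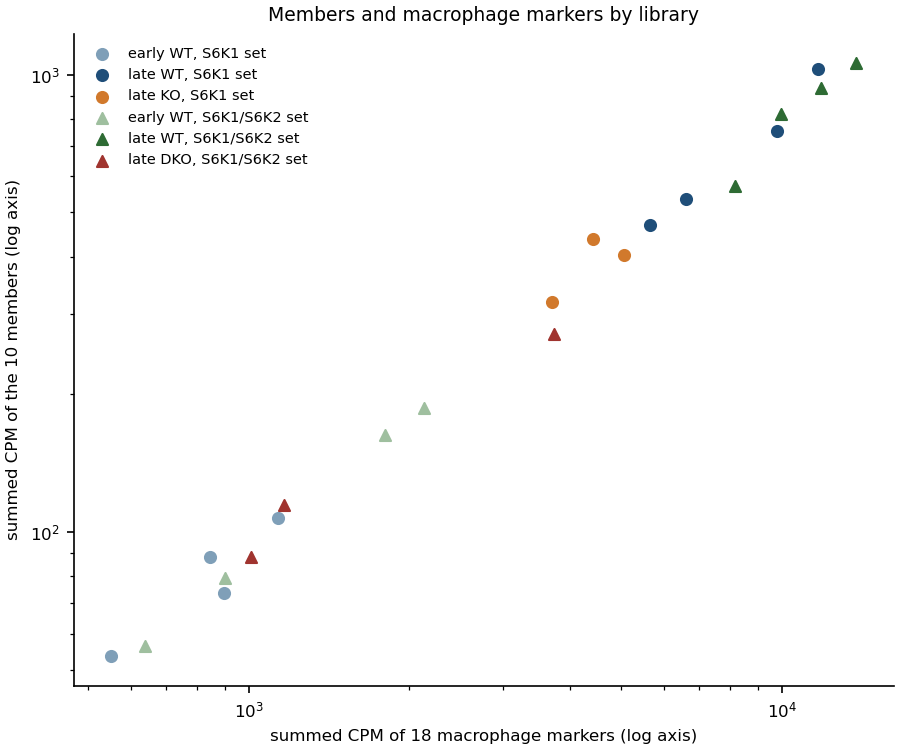
Summed CPM of the 10 members against summed CPM of the 18 macrophage markers, 1 point per library on log axes (circles, S6K1 set; triangles, S6K1/S6K2 set). The points lie along one band from 53.5 and 552 CPM (an early WT library) to 1059 and 13800 CPM (a late WT library), with the KO and DKO libraries between.

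Set against the macrophage markers of the same library, the members together had a median of 95.7, 82.1 and 85.9 counts per 1000 marker counts in early WT, late WT and KO MEFs of the *S6K1* set, and of 88.1, 77.9 and 87.5 in early WT, late WT and DKO MEFs of the other. This ratio needs no scaling between libraries, and it differed far less between groups than the CPM did. Of single members, *Tyrobp* and *Btk* differed little between the groups of the *S6K1* set, and others differed more. *Tyrobp* had 15.7 to 19.1 counts per 1000 in early WT, 18.8 to 22.9 in late WT and 17.3 to 22.1 in KO MEFs, and *Btk* a median of 1.469, 1.499 and 1.518. *Fcgr1* had 3.37 to 5.67 in early WT but 0.801 to 2.15 in late WT and 1.39 to 2.10 in KO MEFs, and in the *S6K1/S6K2* set 2.63 to 5.47 in early WT, 1.276 to 1.432 in late WT and 0.753 to 1.279 in DKO MEFs. Relative to the markers it was therefore higher in early WT than in late MEFs of both sets, opposite to its CPM in WT MEFs. *Pik3cd* and *Syk* had the same order in WT MEFs, with medians of 4.403 and 1.455 for *Pik3cd* and 6.17 and 2.86 for *Syk* in early and late WT MEFs of the *S6K1* set. *Ptpn6* had it too, at 4.950 to 6.418 in early and 4.159 to 4.945 in late WT MEFs there. In the other set it was at 4.035 to 5.546 and 3.052 to 3.564. *Fcgr3* had medians of 11.18 and 7.275 in early and late WT MEFs of the *S6K1* set. Its KO libraries, at 8.66 to 12.37, were above late WT, at 5.81 to 7.82, opposite to the order of its mean CPM. *Fcgr2b* stood out in the *S6K1/S6K2* set, at 7.05 to 8.88 in late WT and 3.07 to 5.03 in DKO MEFs, with no overlap.

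**Figure D5:**
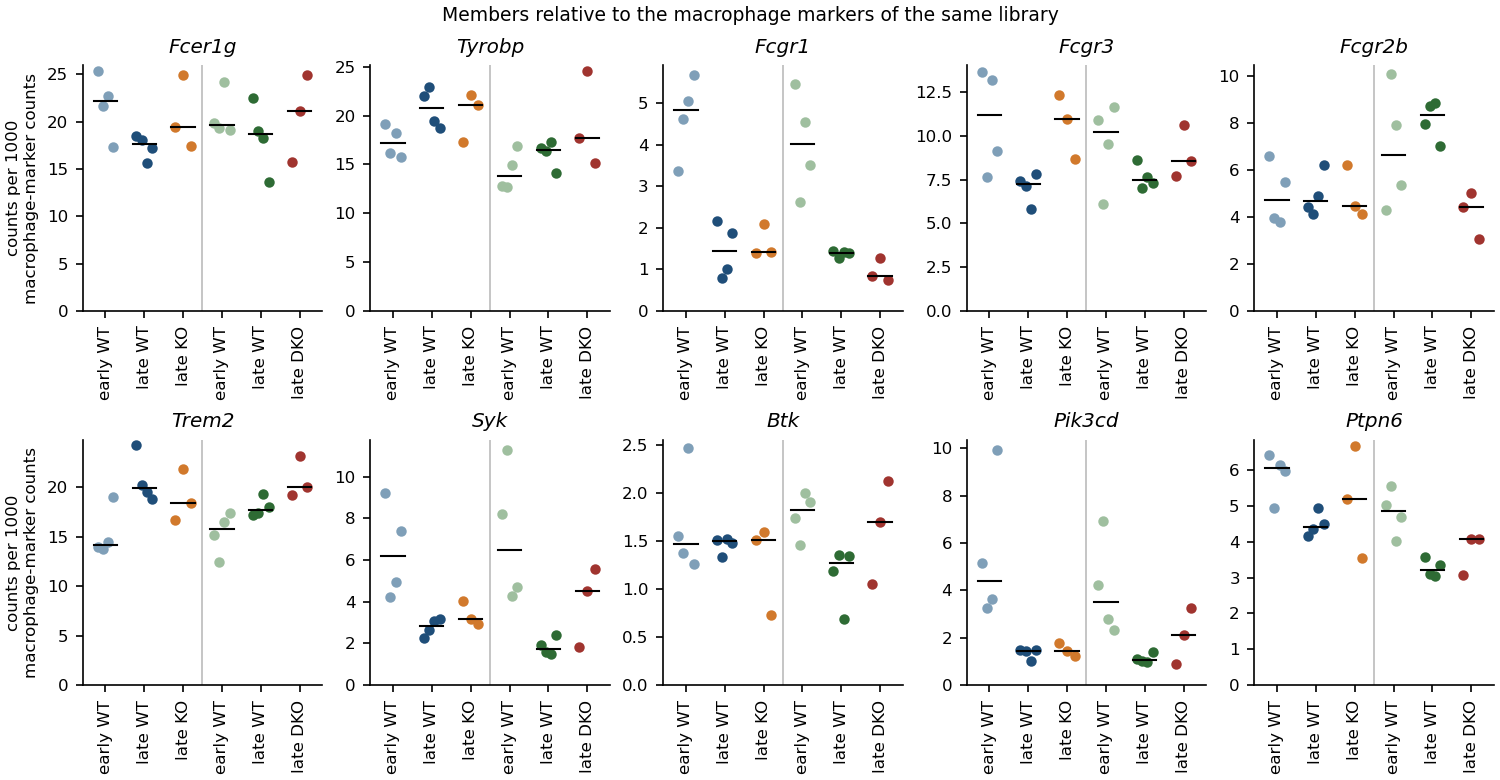
Counts of each member per 1000 macrophage-marker counts of the same library (points; black line, median), linear axes from 0, groups as labelled. Fcer1g has medians of 17.6 to 22.2. Tyrobp and Trem2 have their lowest median in early WT MEFs of each set, while Fcgr1, Fcgr3, Syk, Pik3cd and Ptpn6 have their highest median there. Fcgr2b is lower in DKO (3.07 to 5.03) than in late WT MEFs (7.05 to 8.88) of the S6K1/S6K2 set.

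Within groups the members also varied together. Over the 22 libraries, as deviations of log2 CPM from the group mean, *Ptpn6*, *Trem2* and *Tyrobp* had a Pearson correlation of 0.952, 0.949 and 0.941 with the mean of the other members, while *Syk* had 0.594 and *Pik3cd* 0.403. With the mean of the macrophage markers the correlation was 0.985 for *Trem2* and 0.963 for *Tyrobp*, but 0.486 for *Syk* and 0.351 for *Pik3cd*. Of 13888 other genes, those most like the members' mean by this measure were *Adgre1* (0.972), *C1qb* (0.972), *C1qc* (0.953), *Fcrls* (0.951) and *Slc15a3* (0.950), of which *Adgre1*, *C1qb* and *C1qc* are on the macrophage marker list. These correlations are a description, since the libraries share groups and depth and the members were chosen with their values known.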

How the data were processed

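RNA-seq counts of 22 MEF libraries were analysed. Per the paper's methods, stranded mRNA libraries were sequenced as single-end reads of 50 bases, mapped to mm9 with TopHat and counted with HTSeq, whereas the submitters' processing notes name mm10, CASAVA, STAR 2.7.1a and DESeq2 1.28.1. Of the 55401 identifiers, 22812 were absent from GENCODE vM1, an mm9 annotation. Which of the 2 pipelines made the table, its annotation release and its strand setting are not given in the sources used here. Coordinates are those of RefSeq GRCm38.p6 (mm10). The values deposited by the authors are raw counts per gene, without normalization. All libraries were used and no column was left out.

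Symbols were matched through a table of identifiers. With edgeR 4.0.16 (R 4.3.3), genes of low count were removed (filterByExpr), TMM factors were computed and quasi-likelihood F tests with robust dispersion were run on the 3 groups of a MEF set, without covariates, with Benjamini-Hochberg adjustment over all genes tested and a threshold of 0.05. Interactions were fitted on all 22 libraries. The total count was 10742454 to 17314832. Groups and replicates came from the sample titles, and no source says which libraries share an embryo, so *P* values measure the spread between these libraries. The scripts were tested on simulated data. The members, the pathway list and the marker lists were chosen with earlier results of these data known. Named pathway genes were the up to 8 genes per comparison that passed, did not overlap between groups and averaged at least 1 CPM in either group, by size of the log2 fold change. The 5 genes most like the members were those with the largest correlation of deviations from group means. The alternatives were DESeq2 1.42.0, RLE scaling, scaling by library totals, no filter on low counts, a Y-linked covariate, fits on 2 or on all 6 groups, and leaving out each library in turn.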

Additional observations from a re-analysis of the deposited data

How the results depend on the processing

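The fitted log2 fold changes of the 10 members in the 4 comparisons kept their sign in all 720 alternative values, and 7 of these moved by 1 SD or more. In the *S6K1* KO comparison, where no other pathway gene passed in edgeR with the filter, 11 passed with DESeq2 and 3 without the filter on low counts, all lower. In the DKO comparison, the number that passed was 5 to 40 with 1 library left out, 5 without SG62 or SG64, 19 without SG58 and 40 without SG61, against 32. Over all genes the number lower was 83 without SG62, 135 without SG64, 284 without SG58 and 536 without SG61, against 568. The median log2 fold change of the members there was −3.01 to −2.04 with 1 library left out, −3.01 being the value without SG61. For the difference in the passage effect between sets, 2 genes passed with DESeq2 and 0 to 1 with 1 library left out, 1 of them without SG04 and 1 without SG61. The causes were not tested. The other 189 values kept their direction, with counts within 1.5 times the reported ones. No paired analysis was possible because the labels give no number that libraries of different groups share. Each KO or DKO group had 3 libraries, and 3 counts were 0.173 to 0.279 CPM, and what size of difference this could show was not measured. The DKO ratios without SG61 were added after seeing the data.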
